A study of Mus musculus with 3 samples.

Results

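The genes described here are 10 members of the Nodal and BMP signalling pathways, namely Nodal, Gdf3, Tdgf1, Lefty1, Lefty2, Smad7, Bmp4, Id1, Id2 and Id3. They were taken as a named list, which was chosen with earlier results of these data known. All probe sets with 1 of these symbols alone in the platform annotation were read. This gave 15 of the 45101 probe sets and 10 of 18193 named genes. A probe set is the group of short probes that together read 1 transcript on an Affymetrix array. The RNA came from embryoid bodies on day 7, which are clusters of embryonic stem cells that differentiate in suspension. The cells were mouse embryonic stem cells of strain 129S7/SvEv Brd-Hprt b-m2, and all 3 groups carried a human BRCA1 gene, which encodes a DNA repair protein. The WT group had the wild-type human gene, the MI group had the substitution M1652I, and the RQ group had R1699Q in the series design but R1669Q in the description of its array. Each group was 1 array, the number of cell clones and the state of the mouse Brca1 gene are not given in the sources used here, and no mutant was compared with cells lacking the human gene.

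Nodal and BMP4 are secreted ligands of the TGF-beta family. Nodal binds activin receptors together with the coreceptor encoded by Tdgf1 (Cripto), and the signal passes through SMAD2 and SMAD3 with SMAD4, whereas BMP ligands signal through SMAD1 and SMAD5 with the same SMAD4. In stem cells and the early embryo, Nodal maintains epiblast and induces mesendoderm and its own inhibitors, the Lefty proteins. BMP signalling induces the Id genes, whose products bind bHLH transcription factors and keep them from DNA.

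Promoter windows of 5 of the 10 members were matched by symbol in RefSeq (GRCm38.p6), each holding 250 bases before and 50 bases after the start of the gene. Those of Nodal, Tdgf1 and Id2 are shown because, of these 5 members, they stood farthest from WT on the RQ array. Nodal and Tdgf1 stood on the higher side and Id2 on the lower side. Smad7 (0.84) stood farther from WT than Tdgf1 (0.80) but had no window among those read. The windows shown lie at chr10:61417722-61418021 on the plus strand for Nodal, at chr9:110946109-110946408 on the minus strand for Tdgf1 and at chr12:25096043-25096342 on the minus strand for Id2. Each is printed 5′ to 3′ along the gene, and capitals mark matches on either strand to the SMAD box GTCT, to the GC-rich SMAD motif GGCGCC, which reads the same on both strands, or to TGTNNATT, a loose form of the FOXH1 motif.
Nodal: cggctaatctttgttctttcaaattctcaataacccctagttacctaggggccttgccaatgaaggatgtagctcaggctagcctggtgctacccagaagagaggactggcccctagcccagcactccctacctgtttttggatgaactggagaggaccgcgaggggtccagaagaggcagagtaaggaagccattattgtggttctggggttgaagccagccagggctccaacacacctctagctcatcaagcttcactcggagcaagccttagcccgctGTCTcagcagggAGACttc
Tdgf1: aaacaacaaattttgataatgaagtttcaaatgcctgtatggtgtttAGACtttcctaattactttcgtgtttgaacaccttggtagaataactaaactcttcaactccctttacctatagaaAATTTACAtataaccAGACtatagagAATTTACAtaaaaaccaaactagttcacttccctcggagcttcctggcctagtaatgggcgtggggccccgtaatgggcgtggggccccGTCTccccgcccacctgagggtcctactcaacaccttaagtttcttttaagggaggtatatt
Id2: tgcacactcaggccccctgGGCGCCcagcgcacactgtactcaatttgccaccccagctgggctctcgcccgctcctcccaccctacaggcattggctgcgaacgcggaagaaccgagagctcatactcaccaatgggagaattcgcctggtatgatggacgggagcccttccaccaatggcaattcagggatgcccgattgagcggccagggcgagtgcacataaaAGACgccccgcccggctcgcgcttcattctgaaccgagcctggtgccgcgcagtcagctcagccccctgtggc

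The Nodal window held 2 SMAD boxes, both after the start of the gene. The Tdgf1 window held 3 SMAD boxes and 2 FOXH1 matches, the latter with the same letters at positions 124 and 150 of the window. The Id2 window held 1 SMAD box and 1 GC-rich SMAD motif, at position 20. No match overlapped another in these windows. The SMAD box was found in 88.0% of 32851 promoter windows of the same length, the GC-rich motif in 11.9% and the FOXH1 motif in 12.2%. A match describes letters in this window and is not a binding site, and no binding was measured.

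Signals are the deposited log2 values, and a difference of 1 is 2-fold. With 1 array per group no difference has a replicate check and no test was made, and higher or lower here refers to these arrays alone. A gene with several probe sets was read through the probe set with the highest mean, and levels of different genes are not compared, because each probe set has its own response. An internal gauge of error is how far probe sets of the same gene stand apart. It does not cover error between cultures, labellings or arrays, which all probe sets of a gene share. The hybridization spikes, given below, are a separate internal reading. Over 4570 genes with more than 1 probe set above the level filter, their RQ minus WT differences spanned a median of 0.26 and a 95th percentile of 1.12. For MI minus WT these were 0.24 and 0.97 over 4765 genes.

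The level filter was the median of all values on the 3 arrays, log2 6.31. Of the 10 members, 8 were above it on each of the 3 arrays, so none of these passed through a high array alone. Lefty2, a Nodal inhibitor, read 5.67 on WT, 5.78 on MI and 5.77 on RQ. Id3 read 6.15, 6.29 and 6.09 in the same order. Both lay below the filter on each array, where signals are compressed towards background, and their differences are not read.

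In RQ bodies Nodal, Smad7 and Tdgf1 read higher than on the WT array, Bmp4 and Id1 were near WT, and Id2 read lower. Nodal was 2.22-fold higher, Smad7 1.79-fold and Tdgf1 1.74-fold, and Id2 was 1.92-fold lower. Nodal was the only member past 2-fold, so 1 of 8 readable members was higher and 0 were lower, beside 1.68% of 12226 genes above the filter that were higher and 1.49% that were lower. At a limit of 1.5-fold 3 members were higher and 1 was lower, beside 6.90% and 4.34% of genes. The median difference was 0.37 over the 8 readable members, beside 0.01 over all genes above the filter. Over all 10 members it was 0.17, and that over all named genes was -0.00. Because the members were chosen with earlier results of these data known, these shares and medians are description and no independent comparison.

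**Figure D1:**
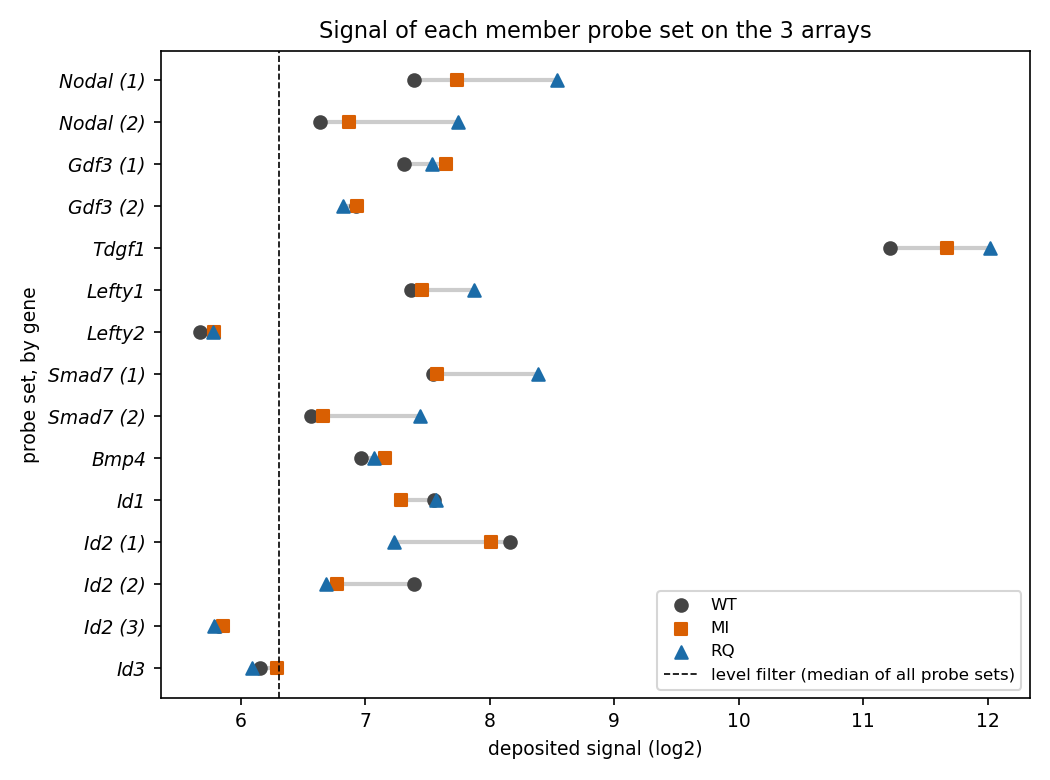
Deposited log2 signal (horizontal axis) of the 15 member probe sets (rows; probe sets of 1 gene numbered from the highest mean) on the WT, MI and RQ arrays, 1 array each. The dashed line is the level filter at 6.31. Both Nodal and both Smad7 probe sets are farthest right on the RQ array, and the 2 Id2 probe sets above the filter are farthest left on it.

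Among the ligands, Nodal read 7.39 on WT, 7.74 on MI and 8.54 on RQ with its brighter probe set, and 6.63, 6.87 and 7.74 with the other. Both probe sets put the arrays in the same order, with WT lowest, MI slightly above it and RQ highest. The RQ minus WT differences were 1.15 and 1.11, which are closer together than the median spread between probe sets of a gene. Nodal ranked 122nd from the top of 12226 genes in RQ against WT, and 2.11% of them stood at least as far from 0 in either direction. In MI against WT it differed by 0.35, and 23.7% of 12786 genes stood at least as far from 0. RQ exceeded MI by 0.80.

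Gdf3 encodes a ligand of the same family that uses the Tdgf1 coreceptor and is made by pluripotent cells. Its brighter probe set read 7.31 on WT, 7.65 on MI and 7.54 on RQ, and the other read 6.93, 6.94 and 6.82. The probe sets did not order the arrays alike, since RQ was above WT by 0.23 with the first and below it by 0.11 with the second (difference -0.11). Gdf3 therefore did not share the pattern of Nodal. Bmp4, read by 1 probe set, was at 6.96 on WT, 7.16 on MI and 7.07 on RQ. Its differences of 0.10 in RQ and 0.20 in MI were small, and 60.7% and 48.3% of the genes above the filter stood at least as far from 0.

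Tdgf1, the Nodal coreceptor, read 11.22 on WT, 11.68 on MI and 12.02 on RQ. WT was lowest and RQ highest, as for Nodal, and RQ was above WT by 0.80. The MI value depended on scaling, because strong signals were lower on the MI array, with a median MI minus WT of -0.46 over the 138.0 genes whose mean level on these 2 arrays was 11 to 12. MI minus WT was 0.46 as deposited, 0.89 after quantile normalization again and 0.91 after a lowess correction on level. RQ minus MI was 0.34 as deposited but 0.02 and -0.02 with these corrections, so the order of the mutants was not settled for Tdgf1.

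The inhibitors were not alike. Lefty1, a secreted inhibitor that Nodal signalling induces, read 7.37 on WT, 7.46 on MI and 7.88 on RQ, so that WT and MI were close and RQ stood above. Its RQ minus WT difference of 0.51 was 1.42-fold, and 14.3% of genes above the filter stood at least as far from 0. Smad7, an intracellular inhibitor of TGF-beta and BMP receptors that both pathways induce, read 7.55 on WT, 7.58 on MI and 8.39 on RQ. The other probe set of Smad7, which can match several transcripts, read 6.56, 6.66 and 7.44. With either, MI was within 0.10 of WT and RQ stood apart, by 0.84 and 0.88 against WT. RQ minus MI for Smad7 was 0.81 with the first, and 5.25% of genes stood as far from 0 in RQ against WT.

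The Id genes, which are direct targets of BMP signalling, differed from one another. Id1 read 7.56 on WT, 7.29 on MI and 7.57 on RQ, so RQ matched WT within 0.01 and MI was lower by a difference of -0.26. Under quantile normalization or the lowess correction the RQ minus WT value of Id1 turned below 0, to -0.04 at the lowest. Id2 read 8.16 on WT, 8.01 on MI and 7.23 on RQ with its brightest probe set, and 7.39, 6.77 and 6.68 with the second. The remaining Id2 probe set was too faint to pass the filter (5.82 on WT, 5.85 on MI and 5.78 on RQ).

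Both readable probe sets of Id2 had WT highest and RQ lowest, with RQ minus WT at -0.94 and -0.71. Id2 ranked 213th from the bottom of 12226 genes in RQ against WT. They disagreed about MI, which was near WT with the first (1.11-fold lower) and near RQ with the second (1.54-fold lower). The mean over all 3 Id2 probe sets, the faint one included, gave -0.56 for RQ against WT.

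In MI bodies no member reached 2-fold or 1.5-fold against WT in either direction with the probe set used for it, while the second Id2 probe set was 1.54-fold lower, as given above. The background in MI was 0.516% of 12786 genes at least 2-fold higher and 2.44% lower, and 1.92% and 8.04% at 1.5-fold. The largest member difference was that of Tdgf1, and the members had a median of 0.12 beside 0.06 for all named genes. The balance of the background moved with scaling, from 66 higher and 312 lower genes to 107 and 193 after quantile normalization again and 83 and 217 after the lowess correction. After these corrections Tdgf1 was past 1.5-fold in MI.

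**Figure D2:**
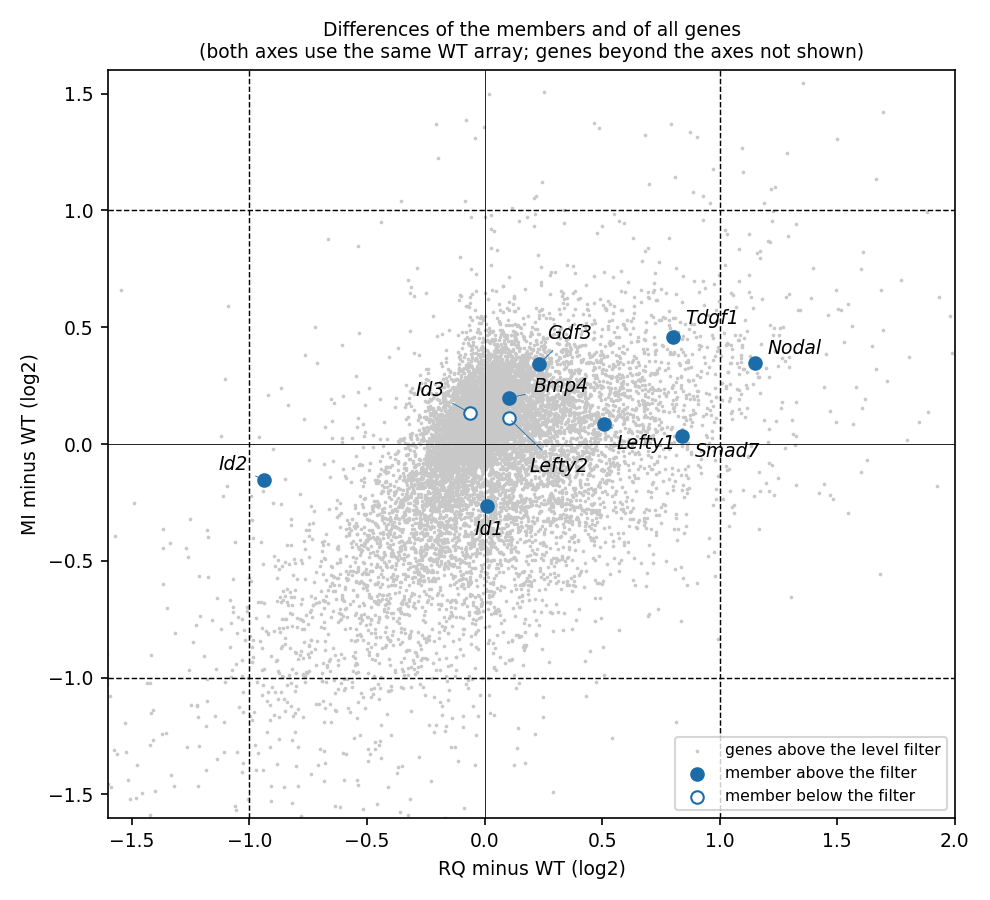
RQ minus WT (horizontal axis) against MI minus WT (vertical axis), in log2, for the members (blue; open circles below the level filter) and all genes above the filter (grey). Both axes use the same WT array, dashed lines mark 2-fold, and genes beyond the axes are not drawn. Nodal at 1.15, Smad7 at 0.84 and Tdgf1 at 0.80 lie to the right, Id2 at -0.94 to the left, and no member passes 2-fold in MI.

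The mutants were also compared directly, and 0 of 8 readable members passed 2-fold on the RQ side and 0 on the MI side, beside 1.98% and 0.508% of 12800 genes. Smad7 (0.81) and Nodal (0.80) were at least 1.5-fold higher and Id2 (-0.78) was at least 1.5-fold lower, beside 9.54% and 1.55% of genes. After quantile normalization again Nodal was at 0.57, short of the 1.5-fold limit of 0.58, and Smad7 at 0.61. With the mean of its 3 probe sets Id2 was at -0.31. The background of 253 higher and 65 lower genes was 116 and 106 after quantile normalization again, and 147 and 79 after the lowess correction. All 3 comparisons share arrays, so their values are not independent.

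The genes nearest to Nodal over the pair of differences from WT, among 12041 genes above the filter in both comparisons, were Fastkd5 (1.13 in RQ and 0.38 in MI, Euclidean distance 0.04), the protocadherin gene Fat1 (1.16 and 0.30, distance 0.05) and the deacetylase gene Sirt1 (1.20 and 0.32, distance 0.05). Within a distance of 0.25 of Nodal there were 100 genes, so likeness over 3 arrays sets few genes apart. For Bmp4, which hardly differed from WT, there were 4870 such genes, and the nearest were Dus1l, Slamf6 and Sorcs2.

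Other genes of the pathways were read from 12 lists by role, which held 96 genes that are not members. Of these 90 were on the arrays under their own symbol, and 67 were above the filter in RQ against WT. In RQ 1 of them was 2-fold higher and 0 lower, and in MI 0 of 66 were higher and 0 lower, beside the same shares of all genes as above. The median over the 90 genes was -0.01 in RQ and 0.12 in MI.

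Tgif1, a homeodomain corepressor of SMAD2 and SMAD3, was the pathway gene past 2-fold in RQ. It read 7.70 on WT, 8.02 on MI and 9.37 on RQ, a 3.17-fold difference between RQ and WT. Its single probe set stood in the order WT, MI, RQ, as those of Nodal did. With the probe sets used, 2 genes were nearest short of 2-fold in RQ. They were Acvr1b, which encodes the type I receptor ALK4 that Nodal uses, and Inhbb, which encodes a subunit of activin B. Acvr1b read 7.28 on WT, 7.41 on MI and 8.22 on RQ (difference 0.94), while its other probe set differed by 0.09. Inhbb was above the filter on the RQ array alone and read 5.94, 6.11 and 6.80, and its second probe set differed by 0.01. Smad1, a BMP transducer, was named after its values were seen. It differed by 0.33 in RQ and -0.08 in MI with the probe set used. Its other probe sets, above the filter on RQ alone, differed by 0.70 and 0.91 in RQ, and by 0.10 and 0.22 in MI. The probe set at 0.91 can match several transcripts. The 6 genes of the BMP Smads and feedback list had a median of -0.01 in RQ, with 3 above WT and 3 below.

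In MI the pathway genes nearest to 2-fold were both lower. Fstl1, a secreted glycoprotein that binds BMP ligands, read 8.55 on WT, 7.61 on MI and 8.002 on RQ. Both probe sets of Fstl1 had MI lowest, with differences of -0.94 and -0.96. After median centring the first was past 2-fold at -1.01. It was at -0.78 after quantile normalization again and -0.83 with the lowess correction. Smad4, the mediator that both branches share, read 9.54 on WT, 8.69 on MI and 9.65 on RQ. Over the 3 Smad4 probe sets the differences from WT ran from -0.90 to -0.55 in MI, and in RQ from 0.12 to 0.28. The Smad4 difference in MI shrank to -0.57 with the lowess correction and to -0.46 with a new quantile normalization.

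Between the mutants, 3 of 68 pathway genes passed 2-fold on the RQ side with the probe sets used, and 0 on the MI side. The shares of all 12800 genes were again 1.98% and 0.508%. The 3 genes were Tgif1 (1.34), Skil (1.10), which encodes the SMAD inhibitor SnoN, and Tmeff1 (1.06), a membrane protein that can bind the Tdgf1 product. Skil and Tmeff1 were named after their values were seen. Skil read 10.17 on WT, 9.57 on MI and 10.67 on RQ, so WT lay between the mutants, and Tmeff1 did likewise at 7.65, 6.93 and 7.99. After quantile normalization again Skil was at 0.75 and Tmeff1 at 0.98, both short of 2-fold, and Tgif1 at 1.05. The lowess correction gave 0.76 for Skil, 1.04 for Tmeff1 and 1.08 for Tgif1. The second probe set of each of Skil and Tmeff1 was below the filter and within 0.1 of WT in both mutants.

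Of the 11 listed Nodal and activin targets, such as Eomes and Mixl1 of the primitive streak, 9 were on the arrays and 4 above the filter, and 0 were past 2-fold in either mutant with the probe sets used (median difference 0.04 in RQ and 0.17 in MI). Eomes, the T-box factor of mesendoderm, read 6.81 on WT, 7.00 on MI and 6.98 on RQ. Sox17, an endoderm factor, differed by -0.26 in RQ and 0.01 in MI with the probe set used. Its other probe set, which can match several transcripts, read 7.14 on WT, 5.67 on MI and 5.72 on RQ. This was more than 2-fold lower in both mutants (differences -1.47 in MI and -1.43 in RQ). Both Sox17 probe sets were thus lower in RQ, by unlike amounts, and the direction in MI was not settled. Of the 13 BMP targets other than the members, 11 were above the filter and 0 past 2-fold (median 0.03 in RQ and 0.25 in MI). In MI 12 of these 13 were above WT, also after the lowess correction (median 0.16). Of all genes 63.5% were above as deposited and 52.9% after the correction. The Nodal and activin targets had 8 of 9 above WT in MI as deposited, as did the TGF-beta ligands and receptors, and 6 of 9 each after the correction. The Smad2/3 branch list had 4 of 11 above as deposited. The member BMP targets Id1 (-0.26) and Id2 (-0.16) were lower in MI with the probe sets used. Other BMP ligands were mostly faint, with 3 of 8 above the filter.

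The bHLH factors that Id proteins bind, Tcf3, Tcf4 and Tcf12, were each above the filter. Tcf3 (E2A) read 6.94 on WT, 6.73 on MI and 7.46 on RQ, and thus stood highest on RQ. With the probe sets used, Tcf4 and Tcf12 stood highest on MI, and no relation of these levels to Id2 was tested. Tcf12 differed by 0.38 in RQ and 0.55 in MI, and Tcf4 by 0.06 and 0.49. This Tcf4 probe set is among those not specific to 1 transcript. Without such probe sets Tcf4 differed by 0.62 in RQ and 0.18 in MI, which turns the order of the mutants, and the median of the 3 genes in RQ against MI went from -0.18 to 0.44. None was past 2-fold. The 5 BMP receptor genes stood between -0.10 and 0.43 in RQ, and between 0.01 and 0.18 in MI, relative to WT, with the probe sets used. Other probe sets of Bmpr1a, a BMP type I receptor, stood outside these ranges, with 1 at 7.44 on WT, 7.57 on MI and 8.16 on RQ (0.71 in RQ) and 1 that can match several transcripts at -0.54 in MI.

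**Figure D3:**
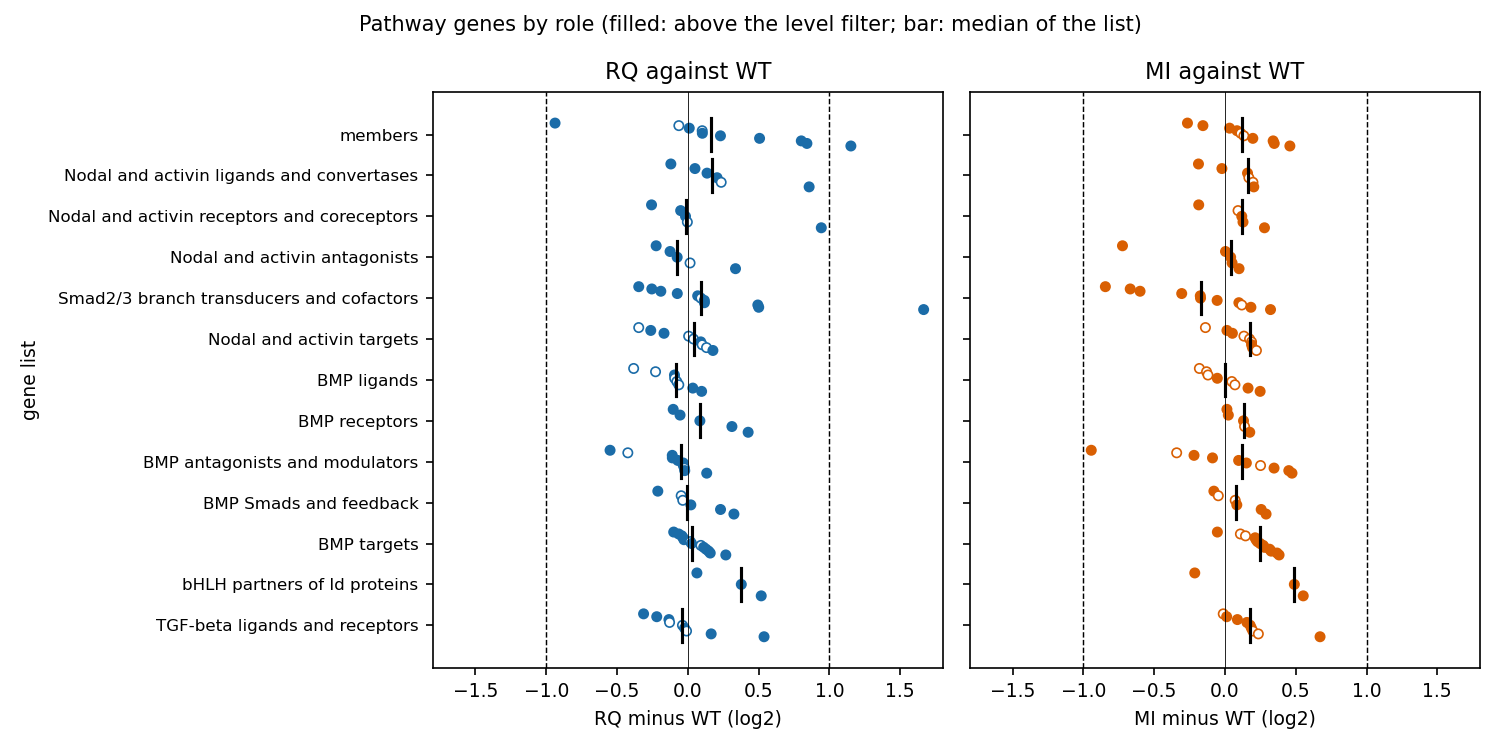
Log2 difference from WT (horizontal axes) of each pathway gene in RQ (left) and MI (right), by role (rows). Filled points are above the level filter on the higher of the arrays compared, bars are list medians and dashed lines mark 2-fold. Nodal at 1.15 and Tgif1 at 1.67 are past 2-fold in RQ, and no gene is past it in MI with the probe sets used.

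The arrays also differed in markers of cell types. Of 5 pluripotency markers 4 passed 2-fold on the RQ side against WT, and their summed linear signal was 6618 on WT, 7328 on MI and 15365 on RQ. As deposited, 2 of the 5 were 2-fold higher in MI and 1 was lower, and the sums are led by the brightest probe sets. The sums use deposited values, and the MI values of these markers depended on scaling, as for Tdgf1. Their median MI minus WT was 0.63 as deposited, 1.02 after quantile normalization again and 1.01 after the lowess correction. In MI 3 of the 5 were above WT as deposited and 4 with either correction. The median RQ minus MI fell to 0.95 with either correction, and 5 of 5 stayed above 0. Pou5f1 (Oct4) read 11.39 on WT, 10.22 on MI and 11.25 on RQ, and Sox2 read 10.54, 10.32 and 11.77. Of 8 extraembryonic endoderm markers 4 were at least 2-fold lower in each mutant with the probe sets used. With these probe sets the 8 genes summed to 9140 on WT, 1236 on MI and 939 on RQ, and Gata4 and Sox7 were below the filter on each array. The other Gata4 probe set was just above it on WT (6.36) and below it on MI (5.89) and RQ (5.84). The Gata6 probe set used differed by -0.09 in RQ and 0.04 in MI. Another Gata6 probe set read 6.78 on WT, 5.70 on MI and 5.72 on RQ, more than 2-fold lower in both mutants. The remaining Gata6 probe set differed by -0.70 in RQ and -0.55 in MI. The other Sox17 probe set, given above, was also more than 2-fold lower in both. The 6 fibroblast or mesenchyme markers summed to 672 on WT, 3136 on MI and 609 on RQ, with Thy1 and Lum below the filter. The higher sum on MI lay in Vim (2.83 against WT), Dcn (2.96) and Col1a2 (1.64), while Postn differed by 0.07 in MI. The 4 trophoblast markers summed to 535, 642 and 919, with Cdx2 and Elf5 below the filter. The higher sum on RQ lay in Tfap2c, which was 2-fold higher in RQ (1.10). In RQ Cdx2 differed by 0.09, Elf5 by -0.02 and Gata3 by -0.04, and Gata3 was below the filter on RQ (6.27). The 4 measured markers of mesoderm and primitive streak summed to 346, 385 and 361, with Mixl1 and Kdr below the filter. The part of these markers in the members' differences was not tested, and in bulk RNA fewer cells of a type and less RNA per cell cannot be told apart. The 18 hybridization spikes, which were added to each sample and carry no cell RNA, had a median difference of -0.64 in RQ and -0.80 in MI against WT, and their part in the members' differences was not tested.

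The members' differences were recomputed under other ways to scale the arrays or read the probe sets. In RQ against WT Nodal lay between 1.03 and 1.16, Smad7 between 0.73 and 0.86, Tdgf1 between 0.80 and 0.91 and Lefty1 between 0.43 and 0.52. Id2 ranged from -0.96 to -0.56 and Gdf3 from 0.06 to 0.24. Nodal was thus past 2-fold in each of these readings, and no other member was in any of them.

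**Figure D4:**
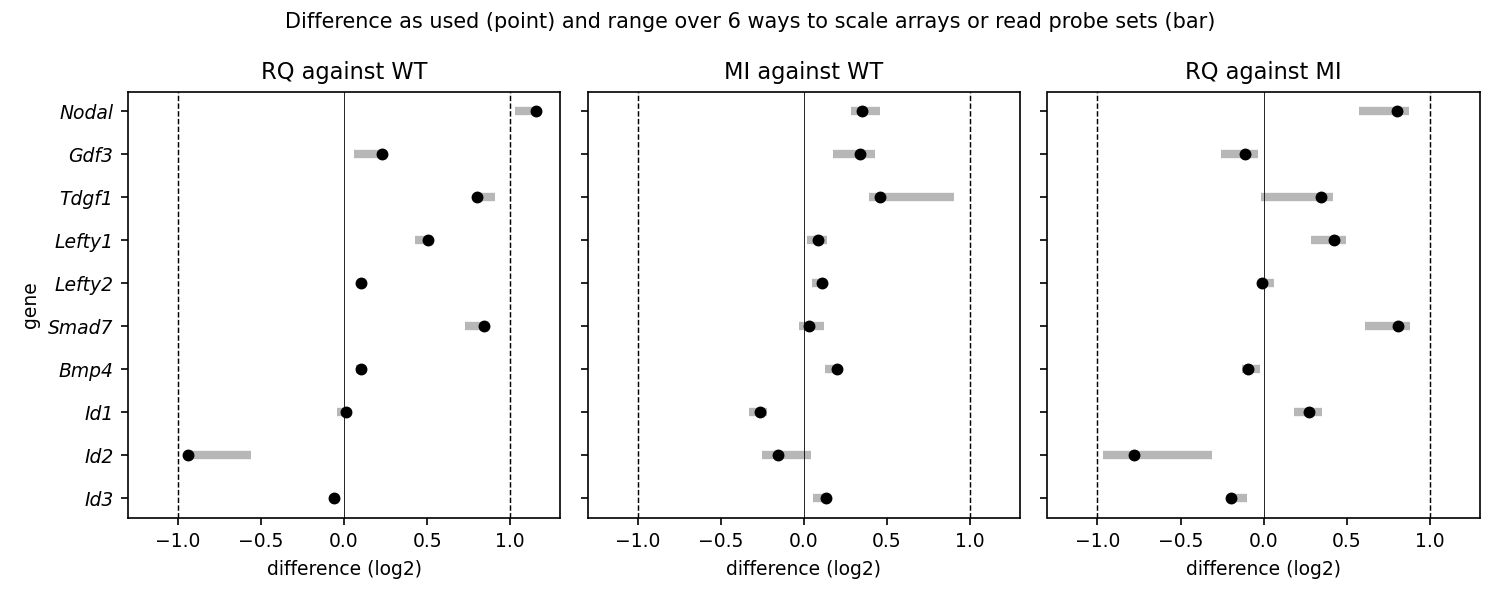
Log2 difference of each member (horizontal axes) in the 3 comparisons, as used (points) and as the range over 6 readings (bars): as deposited, median centring, quantile normalization again, lowess correction, mean of probe sets, and no probe sets that can match several transcripts. Dashed lines mark 2-fold. Tdgf1 has the widest bar in MI against WT, from 0.39 to 0.91, and Id2 in RQ against MI, from -0.96 to -0.31.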

How the data were processed

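The authors deposited log2 probe set signals for 3 arrays, which per the submitters' processing notes involved Partek and RMA, with neither version nor order stated. RMA subtracts background, normalizes arrays and summarises probes. Labelling started from 6 ug of total RNA, per the labels' protocols. The sources used here do not say whether other arrays were normalized with these, and scanner files were not used here. The members and lists were chosen with earlier results of these data known.

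Gene names came from the platform annotation. Of 45101 probe sets, 34945 had 1 symbol and were no control, and 34741 of these matched RefSeq by Entrez identifier with 0 changed symbols. No coordinates are given for probe sets. A gene was counted where its difference reached 2-fold and its higher value the median of all values. Named were all members, pathway genes past 2-fold or the 2 nearest short of it, and the 3 genes nearest to Nodal and to Bmp4. The counting was run on simulated arrays with added differences well past the 2-fold limit. This checks the code alone and does not measure the error of the real values. Python 3.11.15, pandas 2.3.3 and statsmodels 0.14.6 (lowess span 0.3, 3 iterations) were used.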

Additional observations from a re-analysis of the deposited data

How the results depend on the processing

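With 1 array per genotype no replicate could be left out, and no paired analysis was possible because no group has a second array. The number of arrays limits every value, and Lefty2 and Id3 were too faint for a difference to be read. With a 3-fold limit the count of members higher in RQ than in WT fell from 1 to 0, and with a 1.5-fold limit it was 3, with 1 lower. In RQ against MI the 1.5-fold limit gave 2 higher and 1 lower in place of 0 and 0. With the stricter filter at the 75th percentile (log2 6.92), or a filter on the mean of the arrays compared, the median over the members left was 0.37 in RQ against WT and 0.31 in RQ against MI, since Lefty2 and Id3 drop out. The latter median was 0.022 after the lowess correction, beside 0.13 as used. The other 74 recomputed counts and medians kept their value within 1.5 times, or within 0.1 for medians. No scaling moved the median of all genes by more than 0.1. Of 420 recomputed values of named genes 7 crossed the 2-fold limit. Fstl1 in MI against WT (-1.01) and Smad4 in RQ against MI (1.03) passed it after median centring. In RQ against MI, Skil fell short of it after quantile normalization again (0.75), the lowess correction (0.76) and the mean of probe sets (0.52), and Tmeff1 after quantile normalization again (0.98) and the mean of probe sets (0.54).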
